A study of Caenorhabditis elegans with 2 samples.

Results

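The regions described here are promoter candidates of a transcription factor ChIP-seq experiment that ranked just below the set its authors called. ChIP-seq sequences the DNA that comes down with a tagged protein, and a peak caller then lists regions with a signal value. Pooled candidate peaks were ranked by that signal, and ranks 1142 to 2282 were taken, a stretch as long as the called set of 1141 peaks above it. Members are the 575 of these 1141 peaks whose summit lay between 1000 bp upstream and 200 bp downstream of the 5' end of a protein-coding transcript. The other 566 lay outside such windows. In all there were 28727 pooled candidates, of which 9206 had a summit in a promoter window: these 575, 708 called promoter peaks and 7923 at lower ranks.

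The experiment used whole Caenorhabditis elegans at the first larval stage, L1, with the sexes pooled. All libraries came from strain OP305, with the genotype unc-119(ed3) III; wgIs305, in which an integrated transgene supplies eGFP-tagged NHR-11; every animal thus also carried the unc-119 mutation. The libraries form 1 group of 2 biological replicates, with no other genotype, stage or untagged strain, so no contrast between conditions exists. Copy number and regulatory sequence of the transgene are not given in the labels. Because whole animals were used, a weak signal in every cell and a strong signal in few cells cannot be told apart. The lists hold no read counts, so depth is unknown, and the sources used here do not give the scale of the signal value.

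NHR-11 belongs to the nuclear hormone receptors, transcription factors with a zinc-finger DNA-binding domain and a ligand-binding domain. The family is much expanded in nematodes, where most members have no known ligand. Many worm genes lie in operons or are trans-spliced, so an annotated 5' end is often a splice site downstream of where transcription starts. Highly occupied promoters in worm ChIP-seq often belong to broadly expressed genes of protein synthesis and other housekeeping processes.

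The DNA under 8 members is shown to make the sequence features below visible. Each window is 101 bases long, centred on the summit and read on the strand of the gene with the nearest 5' end, from the RefSeq sequence of WBcel235, the assembly that ce11 names. Capitals mark the alternating purine repeat GAGAGA (or TCTCTC) and the CG-containing word GACGCA (or TGCGTC), 2 words already known to be frequent at called peaks of this experiment. For each content, windows that held no annotated exon were taken in order of rank. With the CG word there were egl-4, which encodes a cGMP-dependent protein kinase (chrIV:1857994-1858094, plus strand), and frm-10, a FERM domain gene (chrV:13463063-13463163, plus strand). With both words there were nhr-87, a nuclear hormone receptor gene (chrIV:1623917-1624017, plus strand), and pig-1, a kinase gene needed for asymmetric neuroblast divisions (chrIV:519553-519653, minus strand). With the purine repeat there were mlk-1, a mixed-lineage kinase gene (chrV:5065210-5065310, minus strand), and ergi-3 (chrX:15617278-15617378, minus strand). With neither there were rabx-5, a gene for a Rab5 exchange factor (chrIII:10604512-10604612, plus strand), and mrps-17, for a mitochondrial ribosomal protein (chrIII:6431925-6432025, minus strand).
egl-4: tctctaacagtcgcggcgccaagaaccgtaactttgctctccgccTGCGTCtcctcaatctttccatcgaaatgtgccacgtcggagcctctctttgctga
frm-10: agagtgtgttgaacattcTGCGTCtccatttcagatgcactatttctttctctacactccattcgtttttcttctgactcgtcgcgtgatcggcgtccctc
nhr-87: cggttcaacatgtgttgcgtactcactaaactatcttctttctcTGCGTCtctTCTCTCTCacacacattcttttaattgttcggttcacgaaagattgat
pig-1: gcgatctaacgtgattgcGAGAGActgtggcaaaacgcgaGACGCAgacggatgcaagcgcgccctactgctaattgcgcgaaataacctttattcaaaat
mlk-1: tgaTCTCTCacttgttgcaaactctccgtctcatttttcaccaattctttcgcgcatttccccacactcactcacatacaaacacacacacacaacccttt
ergi-3: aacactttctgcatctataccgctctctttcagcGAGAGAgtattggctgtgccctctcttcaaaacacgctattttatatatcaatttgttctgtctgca
rabx-5: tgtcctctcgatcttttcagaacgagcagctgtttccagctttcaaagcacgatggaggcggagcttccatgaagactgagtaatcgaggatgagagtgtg
mrps-17: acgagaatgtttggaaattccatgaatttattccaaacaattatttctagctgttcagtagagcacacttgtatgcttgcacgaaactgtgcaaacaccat

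The members had no gap in signal above or below them. Their pooled signal ran from 35.4 to 49.9 with a median of 40.5, and these values chose them. The median was 75.6 in called promoter peaks and 18.3 in lower-ranked promoter candidates. At the upper edge the first member, upstream of rabx-5, had a pooled signal of 49.92, and the last called peak, at H14E04.2, had 49.94. At the lower edge the last member, upstream of F10G7.9, had 35.40, and the next promoter candidate, at F28H6.6, had 35.40 as well. All 575 members were 370 bp wide, so width separated none of them.

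Nearly all members overlapped a candidate in the long list of each replicate. Each replicate list held 30000 candidates, and those overlapping members reached down to rank 29782 in replicate 1 and 28363 in replicate 2. A candidate of any rank overlapped 550 of 575 members in both replicates (95.7%, exact Clopper-Pearson 95% interval 93.6 to 97.2%), against 705 of 708 called promoter peaks (99.6%) and 2991 of 7923 lower-ranked ones (37.8%). Over all 9206 pooled promoter candidates the share was 46.1%. A further 14 members had a candidate in replicate 1 only, 11 in replicate 2 only, and none lacked one in both. By overlap at any rank the members thus stood close to the called promoter peaks. With lists this long, such an overlap is a lenient measure of support. The pooled signal that ranked the members was made from the same replicates, so these shares are not independent of how they were chosen, and no difference was tested. The intervals of all shares cover sampling over the peaks or genes of 1 experiment only.

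A place in both top lists is nearly closed to members by the way they were chosen. The lowest signal among the top 1141 candidates was 28.4 (replicate 1) and 26.2 (replicate 2), which sum to 54.5, above the highest pooled signal of a member; the counts below therefore describe the sets and show no difference in reproducibility. In all 6 members overlapped one of the 1141 highest candidates of each replicate (1.04%, exact interval 0.384 to 2.26%), against 479 of 708 called promoter peaks (67.7%, 64.1 to 71.1%); over all promoter candidates the share was 5.70%. The top list of replicate 1 alone held 85 members (14.8%), that of replicate 2 alone another 85 (14.8%), and neither held 399 (69.4%, 65.4 to 73.1%). For called promoter peaks these counts were 115, 97 and 17. With replicate lists extended to rank 2282, 82 members were in both (14.3%) and 396 in 1 of them (68.9%), against 643 (90.8%) and 65 (9.18%) of the called promoter peaks. That lengthening still left 97 members in neither list, and no called promoter peak.

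The 6 members in both top lists include 4 that overlap a called peak. The summit 690 bp upstream of pbrm-1, which encodes the polybromo subunit of a chromatin remodelling complex, had a pooled signal of 48.6, and the overlapping candidates had 60.9 in replicate 1 and 78.0 in replicate 2. This member overlaps a called neighbour, and which of the 2 summits the replicate candidates belong to was not tested. F38E11.9 (35.3 and 36.1 in replicates 1 and 2), T09B4.3 (49.5 and 27.2) and C25A1.16 also overlap called peaks. Without the 5 members that overlap a called peak the share fell to 0.351%. The other 2 were frm-10, with signals of 29.6 and 28.5 in replicates 1 and 2, and the window shared by C41D11.3 and eif-3.H, a subunit gene of translation initiation factor 3, with 34.2 and 27. When replicate summits had to lie within 100 bp of the pooled summit, no member was in both top lists.

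**Figure D1:**
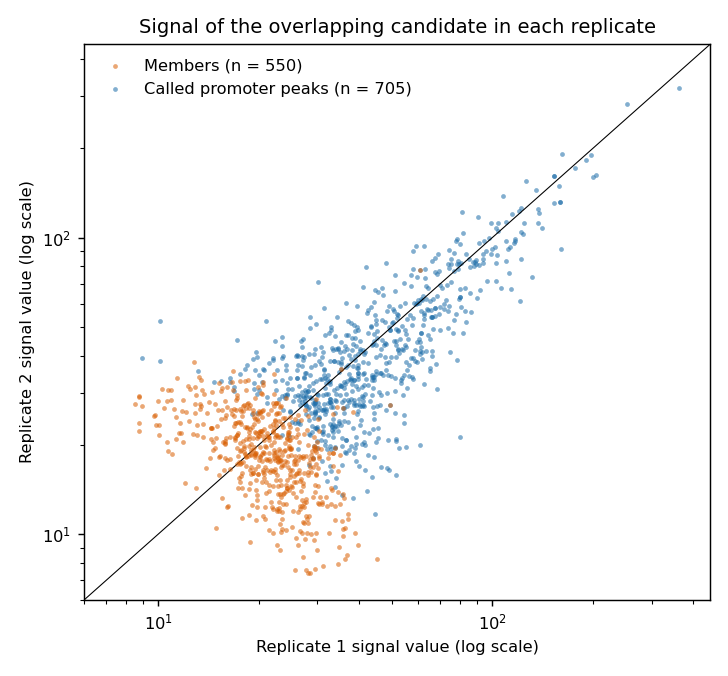
Each point is a peak, with the signal of its overlapping replicate 1 candidate on the x axis and of its replicate 2 candidate on the y axis (both log scales, arbitrary signal units); the line marks equal values. The 550 members form a band across the line in which a high value in one replicate goes with a low value in the other, below the 705 called promoter peaks. Members were selected on the pooled signal, which is close to the sum of both values and so limits the points to such a band.

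Replicate signals of single members were often unequal. The median was 21.9 in replicate 1 (8.52 to 60.9, 564 members) and 19.1 in replicate 2 (7.39 to 78.0, 561 members), against 40.8 and 37.3 in called promoter peaks. Replicate 1 contributed a median of 53.3% of the summed signal in members, ranging from 23.0 to 84.6%, with quartiles of 44.4 and 61.8%. For called promoter peaks the median was 52.4% and the quartiles 47.1 and 57.7%. Members were thus spread more widely around the middle. They were selected from a narrow band of pooled signal, and its part in that spread was not tested. The pooled signal was close to the sum of the replicate signals, with a median ratio of 1.01 in both sets.

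Among members with a candidate in both replicates, the most unequal show what this means for single promoters. Members with no candidate in 1 replicate were left out here. The summit at tbc-6, a gene for a Rab GTPase-activating protein of the TBC family, had 45.4 in replicate 1 and 8.26 in replicate 2, a ratio of 5.49. Next came ethe-1, encoding a mitochondrial persulfide dioxygenase (36.3 and 8.23), and pap-1, a poly(A) polymerase gene (34.5 and 7.96). The ribosomal protein gene rpl-4 (36.8 and 8.50) and dnc-1, the dynactin p150 gene (39.5 and 9.19), followed, all strong in replicate 1 and near the floor of the list in replicate 2. The reverse was seen at spcs-2, a signal peptidase subunit gene, with 8.77 in replicate 1 and 29.4 in replicate 2, a ratio of replicate 2 to 1 of 3.35. The splicing factor genes syf-3 (8.80 and 29.0) and yju-2 (8.96 and 27.2), F08G2.4 (8.52 and 27.4) and rund-1 (10.3 and 31.0) had the same form. The ratio of the higher to the lower replicate was 3.02 to 5.49 over these 10.

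Replicate summits also lay near the pooled summit less often than at called promoter peaks. Among peaks with a candidate in both replicates, both replicate summits lay within 100 bp of the pooled summit for 420 of 550 members (76.4%, exact interval 72.6 to 79.9%), against 671 of 705 called promoter peaks (95.2%, 93.3 to 96.6%) and 1216 of 2991 lower-ranked candidates (40.7%, 38.9 to 42.4%). Within 50 bp, counting all peaks, the shares were 50.3% of members and 83.2% of called promoter peaks. The replicate summits thus lay farther from the pooled summit at members, as far as peaks of 370 bp can show. Each replicate summit was that of the best-ranked overlapping candidate, and the distance between the replicate summits themselves was not measured. Members were chosen for a lower pooled signal, and its part in this was not tested.

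Most members lay upstream of a gene's annotated start, with a longer tail upstream than called promoter peaks. The median position was -228 bp from the nearest 5' end in members (quartiles -448 and -110) and -206 bp in called promoter peaks (quartiles -350 and -104), against -302 bp in lower-ranked candidates. Of the members 529 were upstream (92.0%), and 308 were within 300 bp upstream (53.6%, exact interval 49.4 to 57.7%), against 442 called promoter peaks (62.4%, 58.7 to 66.0%) and 33.9% of lower-ranked candidates. The fullest 50-bp bin, from -200 to -150 bp, held 11.1% of members and 11.2% of called promoter peaks. The next bin toward the 5' end held 9.04% of members and 13.4% of called promoter peaks, the highest share of that set. Coding sequence held 16 member summits (2.78%), 5 called ones (0.706%) and 13.4% of lower-ranked ones. Annotated exons of any kind held 88 members (15.3%) and 100 called promoter peaks (14.1%).

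**Figure D2:**
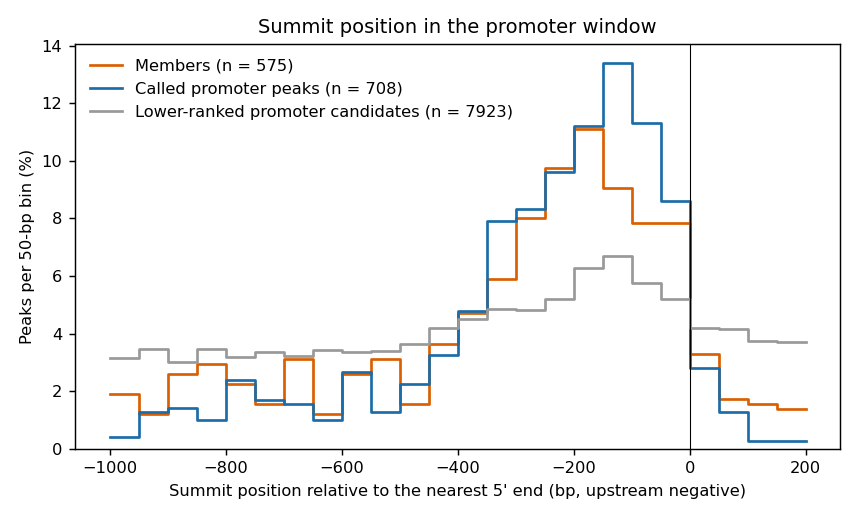
The x axis gives the summit's position relative to the nearest annotated 5' end in bp (upstream negative) and the y axis the percentage of peaks in each 50-bp bin. Members are fullest between -200 and -150 bp, at 11.1%, and called promoter peaks between -150 and -100 bp, at 13.4% against 9.04% of members there; members have a share of 3.30% just downstream of the 5' end.

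Windows shared by genes on both strands were common. They held 145 members (25.2%, exact interval 21.7 to 29.0%), against 224 called promoter peaks (31.6%, 28.2 to 35.2%) and 770 lower-ranked candidates (9.72%). One gene had its window at the summit for 422 members, 2 genes for 144 and 3 or more for 9. With replicate 1 as the only source of the ranking, the divergent share was 20.3%. A gene for a small structural RNA (tRNA, rRNA, snRNA or snoRNA) was found no farther than 500 bp from 16 members (2.78%, exact interval 1.60 to 4.48%), 33 called promoter peaks (4.66%, 3.23 to 6.48%) and 1.62% of lower-ranked candidates. At the same ranks of replicate 2 alone, where 178 of 526 promoter candidates overlapped a member, this small share was 4.56%. X held 84 members (14.6%, 11.8 to 17.8%) and 84 called promoter peaks (11.9%, 9.57 to 14.5%), with overlapping intervals.

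Few genes had both a member and a called summit. Members reached 725 of the 8211 protein-coding genes with any candidate summit in the window (8.83%), and called peaks 956 (11.6%). Both were found at 40 genes, among them lgg-1, the mdt-22 Mediator gene, the nuclear receptor genes nhr-66 and nhr-158, and crh-1, the worm CREB gene. The other 685 were reached by a member and by no called summit. A pair of member summits fell in the windows of 12 genes, including dnc-1, the polarity kinase gene par-1, the chaperone gene dnj-20 and the acetylcholine transporter gene snf-6. The median distance from a member to the nearest called summit was 26255 bp, and the least was 200 bp. For lower-ranked promoter candidates that median was 31701 bp. Most genes with any candidate have no called summit, so the count of 685 is no feature of members.

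The highest-ranked members held signalling, trafficking and housekeeping genes side by side. The adenylyl cyclase gene acy-1 (III 4721984, 111 bp upstream) had 25.8 in replicate 1 and 24.5 in replicate 2. The rabx-5 summit (III 10604562, 787 bp upstream) had 23.8 and 19.1. The mitochondrial ribosomal gene mrps-17, in a window shared with txdc-9, had 27.4 and 26.2. These had similar values in both replicates. The egl-4 summit (IV 1858044, 513 bp upstream) had 20.6 in replicate 1 and 31.9 in replicate 2, and that of lgg-1, the worm Atg8 homologue of autophagy (II 6347915, 196 bp upstream), had 18.6 and 33.2. The mlk-1 summit had 33.5 and 25.4, and ergi-3, with 35.0 and 12.6, was carried largely by replicate 1. The nac-3 summit, 920 bp upstream of a sodium-coupled anion transporter gene, had 19.9 and 24.1. Positions are on ce11, on the chromosome given, and all of these summits were upstream of the annotated 5' end.

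Gene types were set side by side by list. For 31 gene lists, the share of genes with a member summit was read against 8.83% for all genes with a candidate, and the share with a called summit against 11.6%. In 15 lists the member share was above its background, in 7 no gene had a member summit, and 115 of the 725 member genes belonged to any list. Leaving aside 5 lists with no gene in either set, 8 lists had at least as many genes with a member summit as with a called one. The same ranks were also taken from 1 replicate alone, where most promoter candidates were other peaks than the members. Of 513 such candidates in replicate 1, 200 overlapped a member, and of 526 in replicate 2, 178. At these ranks 21 lists moved by more than 1.5 times from their member gene count in at least 1 replicate. The 10 that did not include the ribosomal protein, respiratory chain, chaperone, polymerase, nuclear hormone receptor and chemoreceptor lists. The lists were chosen with earlier results of these data known, no list was tested, and most are small.

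Cytosolic ribosomal protein genes were mostly in the called set already. Of 74 with a candidate, 10 had a member summit (13.5%, exact interval 6.68 to 23.5%) and 42 a called one (56.8%, 44.7 to 68.2%), with none in both. The member summits of rps-18 (38.3 in replicate 1 and 25.8 in replicate 2), rpl-10 (23.7 and 24.7) and rpl-28 (17.6 and 26.5) ranked highest. Of the 10 peaks 6 lay in a window shared with another gene. The rps-18 summit was 573 bp upstream of rps-18 and 158 bp downstream of the 5' end of sec-61.A, whose protein forms the translocation channel of the endoplasmic reticulum. With the nearest gene only, 6 of the 10 remained. Translation elongation genes had 5 of 5 with a called summit and 0 with a member summit. Chaperone genes had 4 of 42 with a member summit (9.52%) and 19 with a called one (45.2%), and the respiratory chain 7 of 48 (14.6%) and 17 (35.4%). The cytochrome oxidase gene cox-6A (29.9 and 20.5 in replicates 1 and 2), cox-10, needed for oxidase assembly (22.5 and 27.8), and the ATP synthase gene atp-3 (22.2 and 20.5) led the respiratory members. The cell cycle and replication list (2 member, 7 called, of 21) and ubiquitin genes (1 member, 7 called, of 25) showed the same order. That first list was drawn up by symbol alone, and its member genes were cdk-9 and mcm-4. The single ubiquitin member, at the polyubiquitin gene ubq-1, had 26.7 in replicate 1 and no candidate in replicate 2.

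In the pooled ranking, splicing and transcription machinery genes were about as numerous at members as at called peaks, which did not hold in every replicate alone. Splicing genes had 10 of 35 with a member summit (28.6%, exact interval 14.6 to 46.3%) and 9 with a called one (25.7%). The list was drawn up by symbol and leaves out syf-3 and yju-2, splicing factor genes whose members lay in windows of their own. The 10 listed genes sat at 9 peaks, all in windows shared with another gene. They include the Sm protein gene snr-1 (30.7 in replicate 1 and 19.5 in replicate 2), sap-140 (25.2 and 21.3) and prp-18 (13.4 and 26.4), as well as the SR protein genes rsp-3 and rsp-5. Subunits of RNA polymerases, TAFs and Mediator had 9 of 39 in each set (23.1% each). Among them were rpb-7 of RNA polymerase II (22.5 and 21.5), mdt-22 (35.1 and 18.5) and rpac-19, shared by polymerases I and III (37.0 and 11.3). The summit 520 bp upstream of ama-1, the large subunit gene of RNA polymerase II, had 33.9 and 12.4; ama-1 was picked from its list after the values were seen. Replicate 1 gave the larger signal at 6 of these 9 peaks, with a median of 62.5% of the summed signal. It was also larger at 6 of the list's 9 called promoter peaks, with a median of 52.5%. Over all 550 members with both values it was larger at 326, with a median of 53.3%. In replicate 1 alone the ranks of the members held 5 splicing genes, against 11 at the top ranks, and 7 polymerase list genes, against 11. In replicate 2 alone they held 6 splicing genes against 7, and 7 polymerase list genes against 6.

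Translation initiation and proteasome genes were somewhat more numerous among members in the pooled ranking, but not in either replicate alone. Initiation factor genes had 6 of 24 with a member summit (25%, exact interval 9.77 to 46.7%) and 4 with a called one (16.7%). The eIF3 gene eif-3.H ranked highest, and eif-3.E had 32.5 in replicate 1 and no candidate in replicate 2. The exchange factor gene eif-2Bdelta had 8.79 and 22.2. Proteasome genes had 6 of 26 with a member summit (23.1%) and 5 with a called one (19.2%). The regulatory particle genes rpn-2 (15.9 in replicate 1 and 20.2 in replicate 2), rpn-9 (14.2 and 28) and rpt-1 (12.4 and 30.8) were all higher in replicate 2. Replicate 2 was the higher one at 5 of the 6 proteasome peaks, and the list's count differed between the replicates: the ranks of the members held 1 proteasome gene in replicate 1 alone, against 5 at the top ranks, and 6 in replicate 2 alone, against 9. For initiation the counts were 3 against 6 in replicate 1 and 3 against 4 in replicate 2.

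Nuclear hormone receptor genes, the family of NHR-11 itself, had more member than called genes. Of 142 with a candidate, 19 had a member summit (13.4%, exact interval 8.25 to 20.1%) and 13 a called one (9.15%, 4.97 to 15.1%), with 2 in both. These intervals overlap, and the first also covers the 8.83% of all genes with a candidate. The order was the same at the ranks of each replicate alone, which mostly held other peaks than the members. In replicate 1 alone 14 receptor genes were at the ranks of the members and 10 at the top ranks, and in replicate 2 alone 16 and 13. Such an order in both replicates was not particular to this family. Chemoreceptor genes, for example, numbered 12 and 8 in replicate 1 alone and 13 and 10 in replicate 2 alone. The nhr-36 summit (V 9261929, 337 bp upstream) had 11.4 in replicate 1 and 33.8 in replicate 2. The nhr-87 summit (IV 1623967, 62 bp upstream), whose sequence is printed above, had 16.7 and 30.7. The summit of nhr-49, a regulator of fat metabolism, had 22.8 and 21.6, similar in both. Of the 19 peaks, 18 had a candidate in both replicates, 10 higher in replicate 1 and 8 in replicate 2. At nhr-173 replicate 1 had 26.6 and replicate 2 had no candidate. Of the 19 peaks 16 lay in the window of the receptor gene alone, unlike the peaks of the splicing list.

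Nuclear pore and small RNA pathway genes were fewer at members than at called peaks, as were all genes with a candidate (8.83% and 11.6%). In both lists the exact intervals for members and called peaks overlapped. Nuclear pore and transport genes had 5 of 30 with a member summit (16.7%, exact interval 5.64 to 34.7%) and 10 with a called one (33.3%). The nucleoporin gene npp-20 had 29.3 in replicate 1 and 9.54 in replicate 2, while npp-12 had 14.6 and 19.3. The ranks of the members held 2 nuclear pore genes in replicate 1 alone and 5 in replicate 2 alone. Argonaute and small RNA genes had 3 of 18 with a member summit (16.7%) and 5 with a called one (27.8%), but only 1 gene at those ranks in each replicate alone. All 3 were higher in replicate 1: the nuclear RNAi gene nrde-4 had 23.4 and 10.1, and the RNAi genes rde-12 and rde-10 had 29.5 and 13.9, and 18.9 and 9.41. Histone genes had 2 of 9 with a member summit and 3 with a called one, the first at his-72, which encodes the variant H3.3. Mitochondrial ribosomal protein genes had 4 of 45 (8.89%), close to the share of all genes, and 6 called. Aminoacyl-tRNA synthetase genes had 3 of 23 and 2 called, with 1 in replicate 1 alone and 5 in replicate 2 alone. Among them was vars-1, for the valyl enzyme, at 20.5 and 22.4. The muscle and cytoskeleton list had 2 of 29 and 3 called, led among members by the actin gene act-2 (25.7 and 7.60).

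Lists of developmental, neuronal and secreted protein genes had few genes at members, and most of them had few at called peaks. Their small counts varied with the ranking: homeobox genes at the ranks of the members numbered 1 in replicate 1 alone and 4 in replicate 2 alone, neuropeptide genes 4 and 3, ion channel and neuronal receptor genes 5 and 2, and C-type lectin genes 0 and 2. Homeobox genes had 0 of 42 with a member summit (exact interval 0 to 8.41%) and 2 with a called one. C-type lectin genes had 0 of 42 and GATA factor genes 0 of 6 in both sets. Cuticle collagens had 1 of 48, col-2 (24.3 and 14.3 in replicates 1 and 2), neuropeptides 1 of 50, nlp-3 (14.4 and 22.8), and F-box and BTB genes 2 of 100. Called summits were found at 3 collagen, 1 neuropeptide and 7 F-box and BTB genes. Ion channel and neuronal receptor genes had 3 of 93 (3.23%) against 2 called, among them the potassium channel gene twk-43 (23.8 and 13.8). The bHLH and T-box list had 1 of 17, hlh-1, the worm MyoD homologue of body wall muscle, with 28.3 in replicate 1 and 17.4 in replicate 2. Chemoreceptor genes had 10 of 309 (3.24%, exact interval 1.56 to 5.87%) and 11 called (3.56%), below the share of all genes in both sets. Replicate 1 was higher at 9 of these 10, led by srt-39 (28.4 and 17.9) and srd-46 (23.2 and 19.1); srg-45 (17.7 and 26.1) was the exception. Over all members replicate 1 was higher at 326 and replicate 2 at 224.

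**Figure D3:**
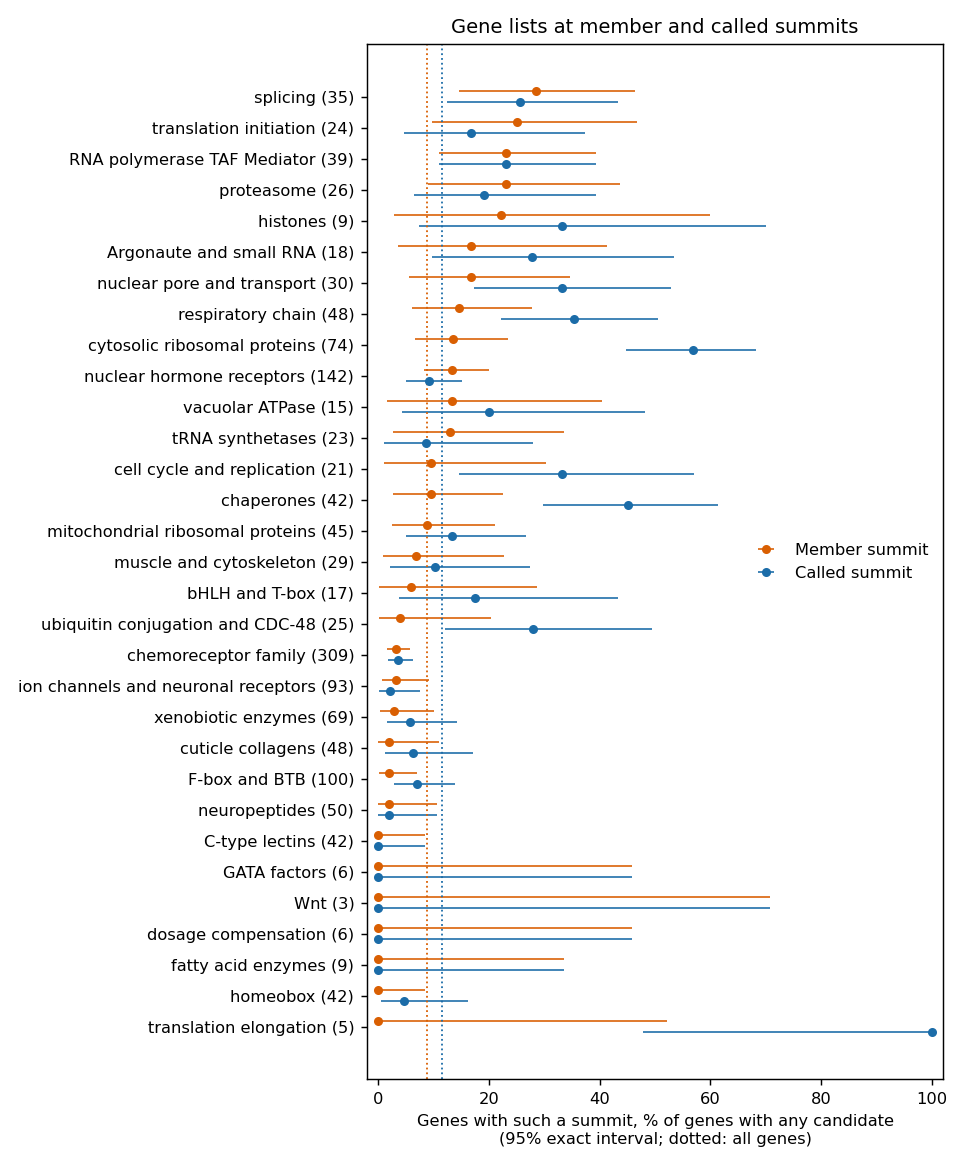
For each list (number of genes with any candidate in parentheses) the x axis gives the percentage of genes with a member summit and with a called summit, with exact 95% intervals; dotted lines mark all genes, 8.83% for members and 11.6% for called peaks. Splicing leads the members at 28.6%, while ribosomal protein genes stand at 13.5% for members and 56.8% for called peaks.

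Member windows lay between called promoter peaks and lower-ranked candidates in base composition. The median GC content of the 101 bases at the summit was 40.6% in members (quartiles 32.7 and 47.5%), 46.5% in called promoter peaks (40.6 and 51.5%) and 33.7% in lower-ranked candidates. Windows of the same length before all 29304 protein-coding 5' ends had a median of 32.7%. Promoter candidates at the same ranks of replicate 1 alone, mostly other peaks than the members, had a median of 37.6%.

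The words frequent at called summits were also frequent at members, at lower shares. Words were sought on both strands, and a window counted once however often it held them. GAGAGA was in 121 member windows (21%, exact interval 17.8 to 24.6%), 186 called windows (26.3%, 23.1 to 29.7%), 8.70% of lower-ranked windows and 8.90% of windows before all 5' ends. GACGCA was in 80 member windows (13.9%, 11.2 to 17%), 152 called windows (21.5%, 18.5 to 24.7%), 3.66% of lower-ranked windows and 2.64% before all 5' ends. Both words stood together in 34 member windows (5.91%) and 52 called ones (7.34%), against 1.11% of lower-ranked ones. Neither word was in 408 members (71.0%), so most members, like rabx-5 and mrps-17 above, lack them. GC content differs between these sets too, and its part in the shares was not tested.

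Both words gathered near the summit. In 20-bp bins the purine repeat was in 6.43% of members just before the summit and 6.61% just after it, and in 2.09% and 2.78% of them in the bins 190 bp to either side. The CG word was in 3.30% and 3.65% in the central bins and in 1.04% and 1.22% at that distance. The words known from nuclear receptors had similar shares in members and called promoter peaks. AGGTCA, the half-site of many nuclear receptors, was in 2.26% of member windows (exact interval 1.21 to 3.84%), 2.68% of called ones and 2.91% before all 5' ends. AGTGCA, which the worm receptor DAF-12 binds, was in 5.22%, 6.07% and 2.85%, and AAGTCA, which Tailless-type receptors bind, in 4.0%, 3.11% and 4.58%, in the same order. The E-boxes CACGTG (3.13% of members, 4.24% of called promoter peaks) and CAGCTG (2.09% and 5.51%) and the GC-rich word GGCGGG (3.65% and 5.93%) were rarer in members. Words rich in A and T were more frequent in members: TATAAA in 9.57% (exact interval 7.29 to 12.3%) against 4.80% (3.35 to 6.65%), the GATA site TGATAA in 8.0% against 4.10%, the T run TTTTTTTT in 8.35% against 4.24%, and the splice acceptor word TTTCAG in 10.1% against 7.77% of called windows. Before all 5' ends these stood at 17.5, 12, 15 and 28% in the same order. The intervals of members and called promoter peaks overlapped for the purine repeat, the splice acceptor word, the E-box CACGTG, the GC-rich word and the receptor words, and no word was tested. A word in a window is a match of letters and was not shown to be bound.

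**Figure D4:**
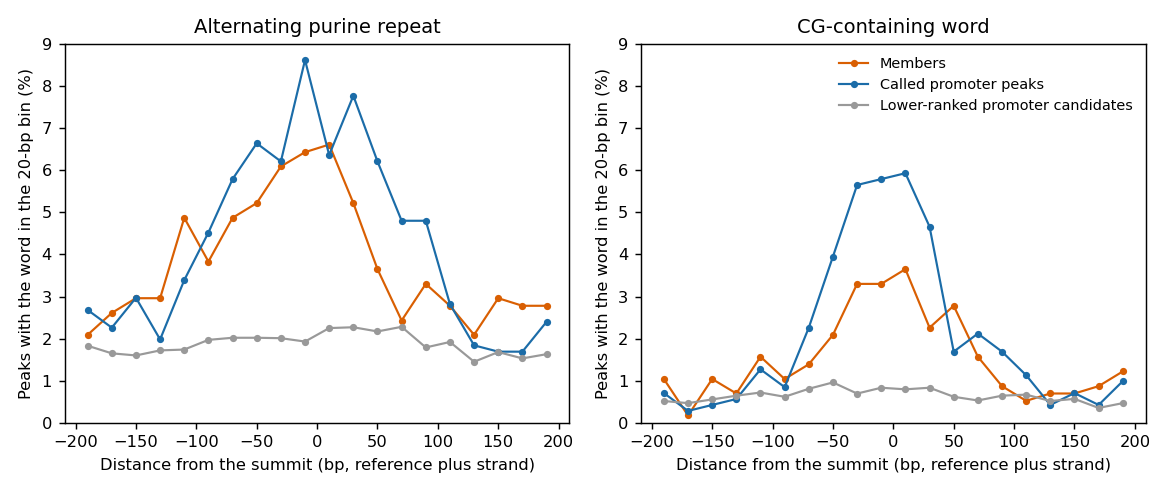
The x axis is the distance from the summit in bp and the y axis the percentage of peaks with the word in each 20-bp bin, on either strand. For members the alternating purine repeat reaches 6.61% and the CG-containing word 3.65% at the summit; lower-ranked candidates are nearly flat.

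Within the members base composition and the CG word changed with rank, while the divergent share, the promoter share and the count of ribosomal protein genes hardly did. Ranks 1142 to 1711 held 288 members and ranks 1712 to 2282 held 287, or 50.5% and 50.3% of all peaks there. The median GC was 42.6% in the first stretch and 39.6% in the second, the GAGAGA share 22.9% and 19.2% (exact intervals 18.2 to 28.2% and 14.8 to 24.2%), and the GACGCA share 18.4% (exact interval 14.1 to 23.4%) and 9.41% (6.29 to 13.4%). The GACGCA share was 17.1% at ranks 571 to 1141 of the called set, close to the upper members, and 7.93% at ranks 2283 to 3423, close to the lower ones. The divergent share was 25.7% and 24.7% within the members, 31.9% at ranks 571 to 1141 and 16.5% at ranks 2283 to 3423. Ribosomal protein genes numbered 30 at ranks 1 to 570, 12 at ranks 571 to 1141 and 5 in each stretch of the members. Across the end of the called set the intervals of the share with the purine repeat, the share with the CG word and the divergent share overlapped. The promoter share was 50.5% (exact interval 46.3 to 54.7%) at ranks 1142 to 1711 and 59.4% (55.2 to 63.4%) at ranks 571 to 1141, and these intervals did not overlap; the difference was not tested.

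**Figure D5:**
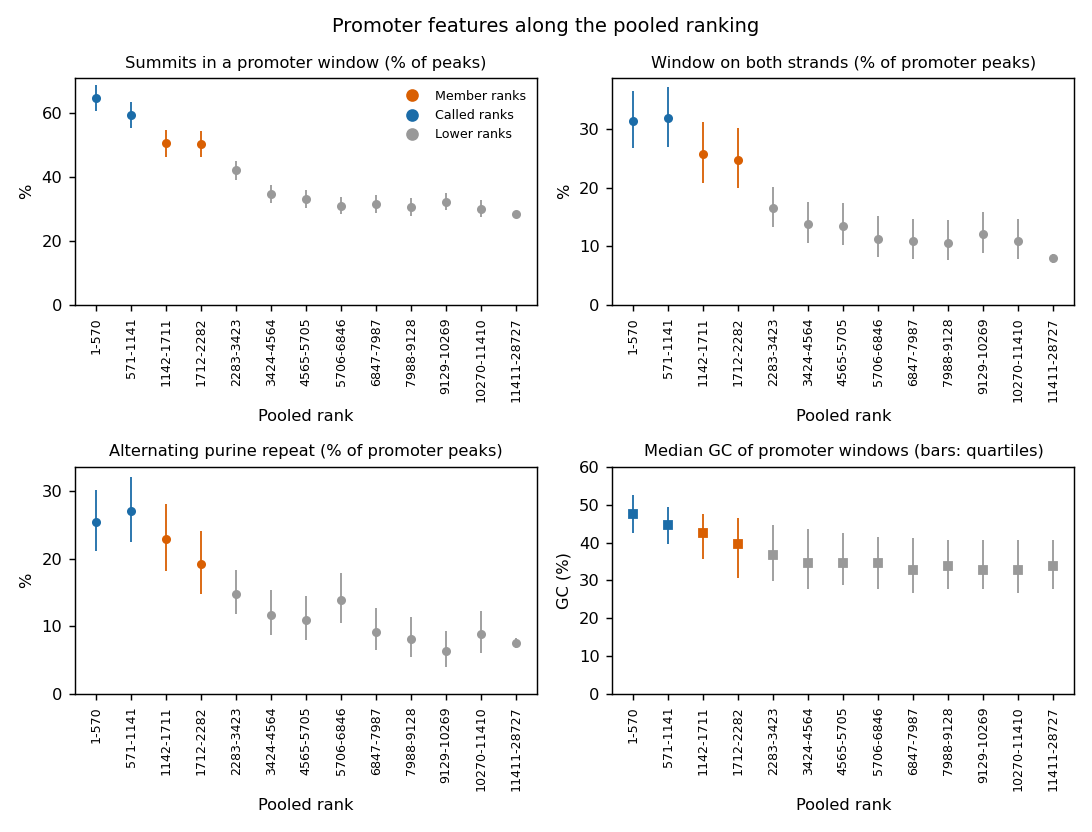
The x axes give stretches of the pooled ranking from high to low signal; the y axes give the promoter share, the share of windows on both strands, the share with the purine repeat (exact 95% intervals) and the median GC content (bars, quartiles). Member ranks fall between the called and lower ranks, with a promoter share of 50.5% and 50.3% and a median GC of 42.6% and 39.6%.

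The loci tied to the transgene added nothing to these members. No pooled candidate lay within 5 kb of nhr-11, and the 8 candidates within 5 kb of unc-119, the best at rank 465, include no member.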

How the data were processed

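ChIP-seq of eGFP-NHR-11 in whole L1 larvae gave candidate peak lists of replicate 1, replicate 2 and the pool, and a called list, all on ce11; lists on ce10 were not used. The signal value in each list is the authors' deposited one. Not given in the sources used here are the peak caller, the aligner, their versions, the threshold of the irreproducible discovery rate and the depth. Pooled candidates were ranked by signal, and summits were assigned to every protein-coding transcript 5' end of Ensembl release 115 (WBcel235) whose window held them. Sequences are RefSeq's for that assembly. A replicate candidate supported a peak when it overlapped by 1 bp or more; the best-ranked one gave the value. Divergent means windows of genes on both strands. Gene lists are symbol patterns. Members, lists and words were chosen with earlier results of these data known, and no test was made: shares carry exact Clopper-Pearson 95% intervals.

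Genes named were those at the 10 highest ranks, up to 3 per list, the 5 highest in both replicates and the ends of the range. The 5 most unequal in each direction were also named, from members with a candidate in both replicates. Others named were chosen after their values were seen. Assignment, overlap, intervals and word search were checked on simulated data, where 478 of 500 intervals covered the true share. Alternatives changed the promoter window, ranking list, rank range, overlap, sequence window and gene assignment. The scripts ran in Python 3.11.15; matplotlib 3.10.9 drew the figures, pandas 2.3.3 and numpy 2.4.6 handled tables, and scipy 1.17.1 gave the intervals.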

Additional observations from a re-analysis of the deposited data

How the results depend on the processing

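Of 80 alternative values, 56 stayed within the interval or 1.5 times of the reported one and 24 moved. The share in both top lists was 0.351% without members that overlap a called peak, 0.348% with an overlap of at least 50% of the peak, 0 with summits within 100 bp and 14.3% with replicate lists as long as the last member rank; with 1 replicate left out it has no value. With 1 replicate left out, the same ranks mostly held other peaks than the members. There the divergent share was 20.3 to 22.2%, the median GC 37.6 to 40.6% and the small RNA share 3.12 to 4.56%. The upper and lower stretch of ranks held 288 and 287 members, 350 and 341 genes with no called summit and 5 ribosomal protein genes each; the median GC was 42.6% in the upper one and the small RNA share 1.39% in the lower one. With the nearest gene only, 6 ribosomal protein genes stayed. Within 25 bp of the summit GAGAGA was in 12.7% of windows and within 100 bp in 32.5%, where the median GC was 37.8%. The causes were not tested. By definition wider windows hold more letters and shorter stretches fewer peaks. List counts with 1 replicate left out were looked at after seeing the data, and 21 of 31 moved by more than 1.5 times in at least 1 replicate; with replicate 2 alone and replicate 1 alone they were 6 and 5 for splicing, 3 and 3 for initiation, 6 and 1 for the proteasome, 1 and 1 for Argonaute and small RNA, 0 and 0 (2 pooled) for the vacuolar ATPase, 5 and 2 for the nuclear pore, 5 and 1 for tRNA synthetases, 4 and 1 for homeobox and 3 and 4 for neuropeptides. No paired analysis was possible because there is 1 group. Depth is unknown, so no limit of detection can be given, and 2 replicates of 1 strain allow no test.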
